A study of Mus musculus with 12 samples.

Results

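Matricellular proteins and small proteoglycans are secreted into the extracellular matrix around muscle fibers. In gastrocnemius muscle of FSHD-like mice, 10 genes that encode such proteins, or the fibril-forming glycoproteins fibronectin and fibrillin-1, were followed across the study's 4 groups. They were Tnc, Postn, Sparc, Thbs1, Thbs2, Fn1, Lum, Dcn, Bgn and Fbn1, chosen by gene symbol, 10 of the 37748 genes in the table. Each symbol had 1 identifier, and all 10 were among the 16679 genes that passed the filter on low counts and were tested. Facioscapulohumeral muscular dystrophy (FSHD) is caused by expression of the transcription factor DUX4 in skeletal muscle.

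Matricellular proteins bind cells and other matrix proteins without being structural fibers themselves. They are low in most resting adult tissues and are known from healing wounds, regenerating muscle and fibrosis. The small leucine-rich proteoglycans have a curved protein core that binds collagen and carry glycosaminoglycan chains, long sugar polymers. Decorin, the product of Dcn, is a major proteoglycan of resting muscle connective tissue, and decorin and biglycan (Bgn) both bind TGF-beta, a growth factor that drives matrix production.

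RNA from 12 mice was sequenced, 1 library per mouse and 3 mice per group. Controls (ACTA1-MCM/+) carried MerCreMer, a Cre recombinase made in skeletal muscle that tamoxifen (TMX) activates. FLExD/+ mice (FLExDUX4/+) carried the conditional DUX4 transgene alone. Mice of the moderate and severe models (FLExDUX4/+;MCM/+) carried both transgenes. The moderate model received TMX at 5 mg/kg in 1 injection and the severe model at 10 mg/kg on 2 consecutive days. Muscles were collected 9 days after TMX at 13 weeks of age, as the study's methods describe. The labels give no TMX for the control and FLExD/+ groups, so TMX itself and DUX4 induction cannot be told apart in comparisons with these controls. The sample descriptions call the FLExD/+ mice mildly affected, whereas their strain and treatment entries give a single transgene and no TMX, and the strain entry was followed. The mild model of the study, uninduced mice with both transgenes, was not analysed here.

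Libraries held 23796902 to 29136403 counts, at which 3 counts correspond to 0.0676 to 0.155 CPM. These floors cover counting error only. CPM are counts scaled to library sizes adjusted with TMM factors, which offset differences in what the libraries are made of. The factors lay between 0.706 and 0.760 in control and FLExD/+ mice, between 1.06 and 1.13 in moderate and between 1.69 and 1.87 in severe mice. Reads of Esr1, whose ligand-binding part is built into MerCreMer, reached 422 to 819 CPM in controls, 27.5 to 37.9 CPM in FLExD/+ mice, 95.9 to 124 CPM in moderate and 35.2 to 37.4 CPM in severe mice. Severe mice, labelled as carrying MerCreMer, thus lay within the FLExD/+ range in CPM, and above it in counts (1475 to 1586 against 554 to 786). Wfdc3 (ENSMUSG00000076434), which the study used as a DUX4 target, had 3 to 8 counts in control and 1 to 8 in FLExD/+ mice, against 2005 to 2910 in moderate and 2776 to 4790 in severe mice. The DUX4 transgene was not analysed here. Skeletal muscle markers were abundant in the control libraries, at 130688 to 177247 CPM summed over 8 genes. Summed over the same genes they were 56648 to 68786 CPM in moderate and 8257 to 14954 CPM in severe mice.

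A gene was called when its edgeR quasi-likelihood adjusted p was under 0.05 and its log2 fold change was at least 0.5 in size. In the moderate model, 8 of the 10 genes were called higher than in controls and 0 lower, where 24.4% of all tested genes were called higher and 17.0% lower. Severe mice had 9 of the genes called higher and 1, Dcn, lower, against 32.9% and 27.9% of all tested genes. Every moderate mouse was above every control for 9 genes, and so was every severe mouse, while all tested genes showed this at 32.6% and 40.0%. The median log2 fold change of the 10 genes was 1.48 in moderate and 2.21 in severe mice, beside 0.04 and 0.08 over all tested genes. With library size alone as the scaling, the median tested gene was 0.65 higher in moderate and 1.39 higher in severe mice (log2), and changes lay higher on that scale. Changes given without a scaling are under TMM. Both models were compared with the same 3 controls, so their results are not independent.

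Between FLExD/+ and control mice, 0 of the 10 genes were called with edgeR, with DESeq2 or with limma on TPM. With edgeR 0 of the 10 had an unadjusted p under 0.05, beside 638 of all 16679 tested genes. In this comparison 1 gene of all tested, Esr1, named after its value was seen, was called (0.00600%). Control and FLExD/+ mice overlapped for each of the 10 genes, with log2 differences from -0.49 (Fn1) to 0.12 (Tnc). Over all 16679 tested genes, 668 had every FLExD/+ mouse above every control, so the overlap does not set the 10 genes apart. The standard errors of these differences ranged from 0.12 (Dcn) to 0.46 (Tnc), so small changes of the more variable genes were not detectable with 3 mice.

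**Figure D1:**
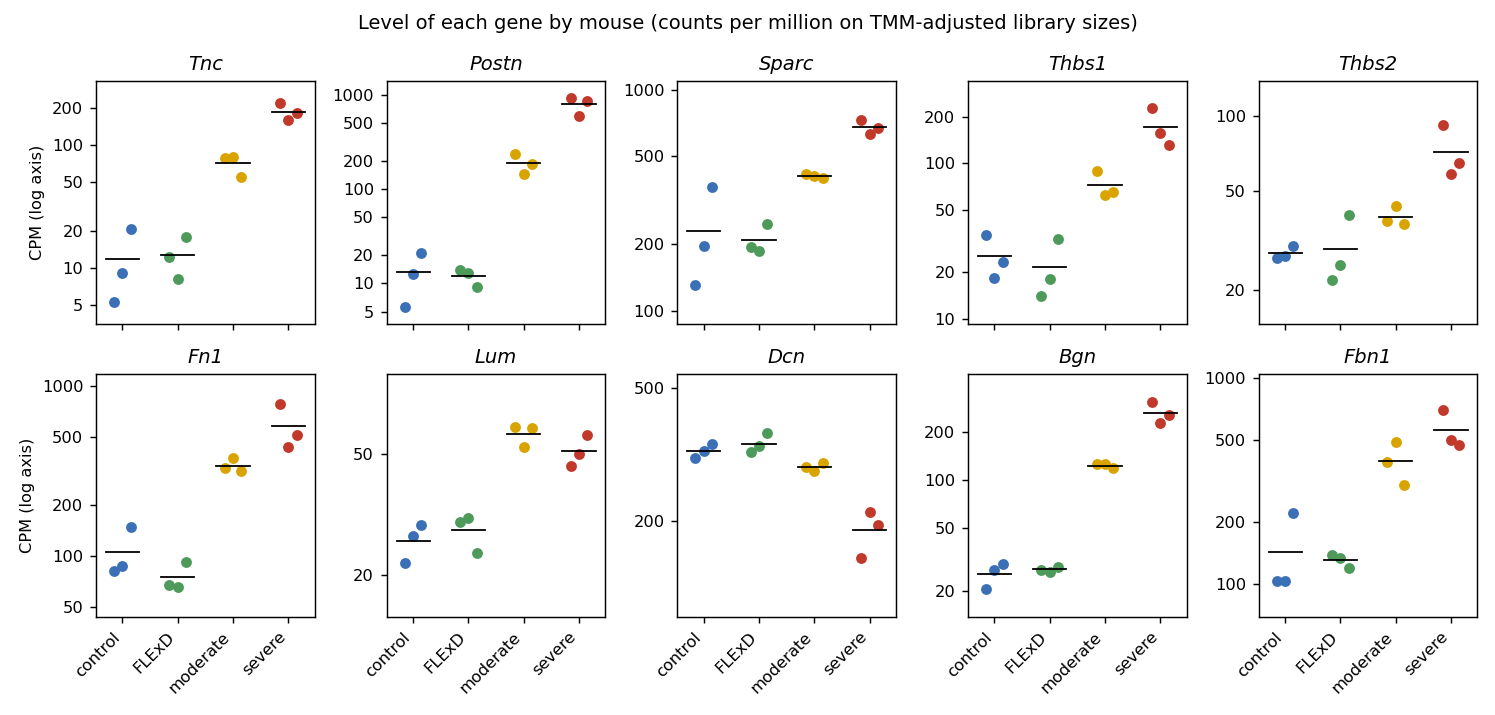
Level of each gene in every mouse (points) and group mean (black line), in CPM on a log axis, for 3 mice per group. For Postn the control mice lie between 5.60 and 20.9 CPM and the severe mice between 600 and 928 CPM, whereas for Dcn the severe mice, at 155 to 213 CPM, lie below the controls.

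Of the 10 genes, Postn (periostin, a collagen-binding protein made by activated fibroblasts) differed most. Postn (ENSMUSG00000027750) lies on chromosome 3 from 54361109 to 54391037 of GRCm38, on the plus strand. Its levels in controls were 5.60, 12.7 and 20.9 CPM, and in FLExD/+ mice 14.0, 12.9 and 9.11 CPM. The moderate mice had 232, 145 and 185 CPM and the severe mice 928, 600 and 852 CPM. The 3 ranges of control, moderate and severe mice did not touch. Against controls, Postn rose 14.3-fold in the moderate model (log2 3.84 ± 0.42, SE, adjusted p = 2.2e-05). In the severe model it rose 60.6-fold (log2 5.92 ± 0.46, SE, adjusted p = 5.8e-07). The log2 changes were 4.44 and 7.22 with library size alone and 4.04 and 6.88 on TPM. Severe mice were 4.24-fold above moderate mice (adjusted p = 0.00106).

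Tnc (tenascin-C, a large adhesion-modulating protein known from embryonic and healing tissue) had the next largest change. Tnc (ENSMUSG00000028364) lies on chromosome 4 from 63959785 to 64047015, on the minus strand. Control mice had 5.23, 9.06 and 20.6 CPM and FLExD/+ mice 12.2, 8.13 and 17.7 CPM. Levels were 77.8, 79.0 and 54.9 CPM in moderate and 220, 159 and 180 CPM in severe mice. The lowest moderate mouse was thus above the highest control, and the lowest severe mouse above the highest moderate mouse. Tnc rose 6.05-fold in the moderate model (log2 2.60 ± 0.46, SE, adjusted p = 9.9e-04) and 16.0-fold in the severe model (SE 0.48 on the log2 scale, adjusted p = 4.0e-05). Without control mouse 1349, which had the 20.6 CPM, the rises were 9.63-fold and 25.7-fold. Its severe to moderate difference of 1.40 (log2, adjusted p = 0.0204) had adjusted p = 0.0732 without moderate mouse 1331 and 0.0741 without severe mouse 1047. The fit shares 1 estimate of spread over the 4 groups, so the spread of the controls enters these values. For Tnc the SD was 68.7% of the mean in controls, 19.2% in moderate and 16.7% in severe mice. Tnc overlaps 8030451A03Rik, which had at most 29.88 counts in a library.

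Thbs1 and Thbs2 encode thrombospondins, secreted proteins that bind CD47 and CD36 and restrain blood vessel growth, and thrombospondin-1 also activates latent TGF-beta. Thbs1 (ENSMUSG00000040152, chromosome 2 from 118111876 to 118127133, plus strand) had 34.5, 18.3 and 23.1 CPM in controls and 13.9, 18.0 and 32.7 CPM in FLExD/+ mice. It reached 88.7, 62.4 and 65.2 CPM in moderate and 226, 158 and 132 CPM in severe mice. Again the 3 groups of control, moderate and severe mice were separate. The rise was 2.85-fold in the moderate (log2 1.51 ± 0.35, SE, adjusted p = 0.00419) and 6.81-fold in the severe model (log2 2.77 ± 0.36, SE, adjusted p = 5.1e-05). Severe mice exceeded moderate mice by 1.25 (log2, adjusted p = 0.011), and the adjusted p was 0.0617 without severe mouse 1047.

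Thbs2 (ENSMUSG00000023885, chromosome 17 from 14665500 to 14694235, minus strand) moved less. Levels were 26.9, 27.3 and 30.1 CPM in controls and 21.9, 25.1 and 40.1 CPM in FLExD/+ mice. They were 37.7, 43.4 and 36.6 CPM in moderate and 92.0, 58.3 and 64.4 CPM in severe mice. Every moderate mouse was above every control, but the log2 difference of 0.48 (standard error 0.21, adjusted p = 0.0767) was not called. With library size alone as the scaling this difference was 1.09 and was called. In the severe model Thbs2 rose 2.54-fold (log2 1.35 ± 0.21, SE, adjusted p = 1.1e-04), and it was 0.87 (log2) above the moderate model (adjusted p = 0.00447).

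Sparc (osteonectin, a collagen-binding protein that acts in collagen assembly) was high already in control muscle. Sparc (ENSMUSG00000018593) lies on chromosome 11 from 55394500 to 55423183, on the minus strand. Controls had 131, 196 and 363 CPM, FLExD/+ mice 195, 187 and 246 CPM, moderate mice 416, 406 and 397 CPM and severe mice 729, 627 and 674 CPM. Control mouse 1349, at 363 CPM, came close to the moderate mice. The moderate change was 0.82 (log2, SE 0.27, adjusted p = 0.0236), and this call held under 6 of 13 alternatives. Without mouse 1349 it was 1.28 (adjusted p = 4.8e-05), and leaving out any other control or moderate mouse gave adjusted p between 0.0505 and 0.0947. In the severe model the change was 1.56 (log2, SE 0.28, adjusted p = 2.8e-04) and it was called under 13 of 13 alternatives. The step from moderate to severe of 0.74 (log2, adjusted p = 0.0406) was called under 6 of 13. Leaving out any mouse of either group gave adjusted p between 0.064 and 0.16. The main fit shares 1 estimate of spread over the 4 groups, so the spread of the controls enters these values. For Sparc the SD was 52.2% of the mean in controls, 2.45% in moderate and 7.58% in severe mice, whose ranges were separate.

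Control mouse 1349 had the highest control level of 9 of the 10 genes, Thbs1 being the exception. It was also highest among controls for the collagen gene Col1a1, with 11581 counts against 1053 and 2371 in the others. Its part in these results was measured by leaving it out. Without it, the calls of the 10 genes numbered 8 higher in moderate and 9 higher in severe mice.

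The sequence upstream of these genes is shown for comparison. RefSeq promoter windows were present for 6 of the 10 genes (Tnc, Postn, Sparc, Thbs2, Bgn, Fbn1). Tnc and Postn had 2 windows each, and what follows covers the 1 window shown for each of them. Shown are the 250 bases before the transcription start for Postn, Tnc and Bgn, the 3 genes with the largest rises in both models, 5′ to 3′ on the gene's own strand (GRCm38.p6). They are chr3:54360857-54361106 (plus strand) for Postn, chr4:64047016-64047265 (minus strand) for Tnc and chrX:73483351-73483600 (plus strand) for Bgn, and matches to a TATA box (TATAAA, either strand) are in capitals.
Postn: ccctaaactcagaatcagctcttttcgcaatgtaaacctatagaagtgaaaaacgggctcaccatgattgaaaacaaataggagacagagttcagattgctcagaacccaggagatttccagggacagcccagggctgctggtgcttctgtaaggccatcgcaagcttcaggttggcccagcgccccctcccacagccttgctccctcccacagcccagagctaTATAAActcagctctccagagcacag
Tnc: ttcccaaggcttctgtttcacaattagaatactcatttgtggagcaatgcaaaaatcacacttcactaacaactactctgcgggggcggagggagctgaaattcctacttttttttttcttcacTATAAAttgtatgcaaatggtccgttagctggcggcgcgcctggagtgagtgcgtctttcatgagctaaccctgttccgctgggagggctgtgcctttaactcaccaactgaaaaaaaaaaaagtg
Bgn: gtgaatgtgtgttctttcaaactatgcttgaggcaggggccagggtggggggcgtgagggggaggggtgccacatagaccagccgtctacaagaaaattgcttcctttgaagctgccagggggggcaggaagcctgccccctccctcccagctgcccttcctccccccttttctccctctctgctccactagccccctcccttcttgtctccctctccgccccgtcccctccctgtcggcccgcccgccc

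The match starts 26 bases before the start in Postn and 126 bases before it in Tnc, and the Bgn window has none. Thbs2 also had a match, at 126 bases before the start, and Sparc and Fbn1 had none. Of 32817 windows of this length, 12.4% held TATAAA on either strand. Also searched on both strands were CCAAT, the AP-1 site TGANTCA, the TEAD site CATTCC and the SMAD-binding letters CAGACA. None of them was found in the windows of Postn, Tnc, Bgn or Fbn1. CAGACA was found in Sparc and in Thbs2, and CCAAT in Thbs2, while 17.1% and 33.8% of all windows hold these letters. The percentages for AP-1 and TEAD letters were 6.75% and 12.6%. Such matches only describe the letters. The Sparc and Fbn1 windows start 3103 and 1555 bases from the GENCODE gene start, so they belong to other annotated starts.

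Fn1 and Fbn1 encode large glycoproteins that cells assemble into fibrils, fibronectin in provisional matrix and fibrillin-1 in the microfibrils that carry elastin and hold latent TGF-beta. Fn1 (ENSMUSG00000026193, chromosome 1 from 71585520 to 71653200, minus strand) had 81.3, 87.1 and 147 CPM in controls and 67.4, 65.3 and 92.0 CPM in FLExD/+ mice. The moderate mice had 329, 377 and 316 CPM and the severe mice 788, 436 and 516 CPM. Groups were separate from control to moderate and from moderate to severe. Fn1 rose 3.24-fold in the moderate (log2 1.70 ± 0.26, SE, adjusted p = 1.2e-04) and 5.52-fold in the severe model (log2 2.46 ± 0.26, SE, adjusted p = 2.7e-06). The step of 0.77 from moderate to severe (log2, adjusted p = 0.022) was 0.48 without severe mouse 1047, which had the 788 CPM (adjusted p = 0.145). Its adjusted p was 0.0657 without moderate mouse 1236 and 0.069 without moderate mouse 1331.

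Fbn1 (ENSMUSG00000027204, chromosome 2 from 125300594 to 125507993, minus strand) had 104, 104 and 222 CPM in controls and 139, 134 and 119 CPM in FLExD/+ mice. Moderate mice had 393, 487 and 302 CPM and severe mice 697, 502 and 472 CPM, so the models overlapped each other but not the controls. Fbn1 rose by 1.46 in the moderate (log2, SE 0.29, adjusted p = 0.00106) and by 1.95 in the severe model (log2, SE 0.29, adjusted p = 6.9e-05). The severe to moderate difference of 0.50 (standard error 0.28, adjusted p = 0.161) was not called, and scaled by library size alone it came to 1.21 and was called.

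The 3 small proteoglycan genes went apart. Bgn (ENSMUSG00000031375, chromosome X from 73483602 to 73495933, plus strand) had 20.6, 27.1 and 29.4 CPM in controls and 27.2, 26.4 and 28.2 CPM in FLExD/+ mice. The moderate mice had 126, 125 and 118 CPM and the severe mice 309, 229 and 255 CPM. Mice of a group lay close together, with standard errors of 0.13 and 0.14 for the changes. Bgn rose 4.78-fold in the moderate (log2 fold change 2.26, adjusted p = 1.5e-08) and 10.3-fold in the severe model (log2 fold change 3.36, adjusted p = 1.5e-10), and by 1.10 from moderate to severe (log2, adjusted p = 1.3e-05). Because Bgn is on the X chromosome, the sex of the mice was checked. Every library had at least 2600 counts of Xist and at most 1 of the Y-linked Ddx3y. Of the other Y-linked genes, Eif2s3y had 0 to 1 counts, Kdm5d 0 to 6 and Uty 2 to 15.

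Lum (lumican, a keratan sulfate proteoglycan that sets collagen fibril thickness) rose in both models, without a further step under TMM. Lum (ENSMUSG00000036446, chromosome 10 from 97565128 to 97572703, plus strand) had 21.8, 26.8 and 29.2 CPM in controls and 29.9, 30.7 and 23.6 CPM in FLExD/+ mice. Levels were 61.4, 52.9 and 61.0 CPM in moderate and 45.9, 50.3 and 57.9 CPM in severe mice, so the models overlapped. Lum rose by 1.17 in the moderate (log2, SE 0.13, adjusted p = 4.1e-06) and by 0.98 in the severe model (log2, SE 0.13, adjusted p = 8.9e-06). The severe to moderate difference was -0.19 (log2, SE 0.13, adjusted p = 0.234), and its sign depends on the scaling, with 0.51 for library size alone and 0.53 for TPM. On TPM every severe mouse (75.2 to 83.5) was above every moderate mouse (53.2 to 56.7). The lack of a call held under 11 of 13 alternatives.

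Dcn (ENSMUSG00000019929, chromosome 10 from 97479609 to 97518143, plus strand) was the exception among the 10 genes. Control mice had 308, 325 and 341 CPM and FLExD/+ mice 321, 335 and 367 CPM. The moderate mice had 291, 283 and 299 CPM and the severe mice 155, 213 and 195 CPM. In CPM every moderate mouse was below every control, and every severe mouse below every moderate mouse. This order depends on the scaling. On TPM the moderate mice (257 to 272) were above the controls (195 to 229), and the severe mice (242 to 338) overlapped the moderate mice. The moderate change of -0.16 (log2, SE 0.12, adjusted p = 0.267) was not called. Under TMM scaling Dcn fell by 0.79 in the severe model (log2, SE 0.12, adjusted p = 2.9e-05) and was -0.63 against the moderate model (log2, adjusted p = 5.0e-04), and these signs depend on the scaling. With library size alone Dcn was 0.45 higher in moderate and 0.51 higher in severe mice (log2), less than the median gene. Relative to that median gene, Dcn stood at -0.20 in moderate and -0.88 in severe mice. On TPM it was 0.33 and 0.41 higher, with medians of 0.29 and 0.79.

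**Figure D2:**
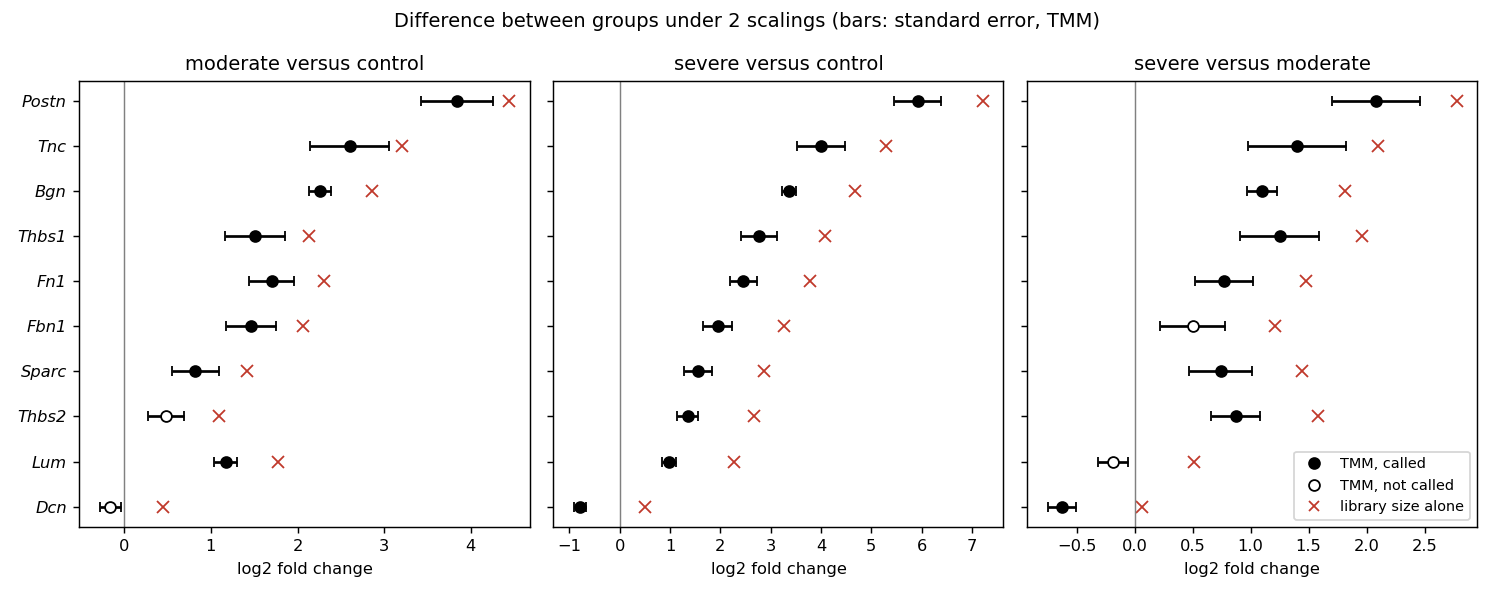
Log2 fold change of each gene (horizontal axis) in 3 comparisons, with TMM scaling (circles, filled where called, bars for the standard error) and with library size alone (crosses). Postn is highest in each comparison, at 3.84, 5.92 and 2.08 under TMM, and Dcn is the gene whose severe change goes from -0.79 to 0.51 between the scalings.

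Lum and Dcn are neighbors on the plus strand of chromosome 10, 47.0 kb apart, and Kera and Epyc, 2 more small leucine-rich proteoglycan genes, follow. Kera, keratocan, had 25, 152 and 147 counts in controls, 67, 143 and 65 in moderate and 39, 61 and 45 in severe mice. Its log2 fold change was -2.20 in severe mice (SE 0.62, adjusted p = 0.00882), although the groups overlapped in CPM. Epyc was too low to be tested. Within this stretch of the chromosome Lum was thus called higher and Dcn and Kera lower in the severe model under TMM. Kera was not called with library size alone (-0.91, log2, adjusted p = 0.176).

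A ratio of 2 genes within a mouse does not depend on the scaling between libraries, so 6 pairs were compared as log2 ratios of counts. The log2 ratio of Lum to Dcn was -3.82, -3.60 and -3.55 in controls, -2.24, -2.42 and -2.29 in moderate and -1.75, -2.09 and -1.75 in severe mice. For Bgn to Dcn it was -3.90, -3.58 and -3.54, then -1.21, -1.18 and -1.34, then 1.00, 0.10 and 0.39. So every severe mouse, and 0 of the control or moderate mice, had more Bgn than Dcn counts. Counts also depend on transcript length, so this does not rank the levels of the 2 genes. On TPM, Bgn was above Dcn in severe mouse 1047 (308 against 242). It was below Dcn in severe mice 1066 (226 against 338) and 1079 (212 against 265). The mean for Postn to Dcn went from -4.83 ± 0.88 in controls to -0.66 ± 0.32 in moderate and 2.07 ± 0.55 in severe mice (SD, n = 3). For Tnc to Dcn the means were -5.03 ± 0.92, -2.06 ± 0.33 and -0.01 ± 0.48 (SD, n = 3). In these 4 pairs the 3 groups did not overlap in any comparison. Each comparison had an exact two-sided permutation p of 0.10, the smallest that 3 against 3 mice allow, and 0.12 after adjustment over 18 comparisons, so none could pass the threshold.

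Both thrombospondins and both fibril proteins were also set against each other. The log2 ratio of Thbs1 to Thbs2 was 0.36, -0.58 and -0.38 in controls, 1.24, 0.52 and 0.83 in moderate and 1.30, 1.44 and 1.04 in severe mice. Both models lay above the controls (exact permutation p = 0.10 each, adjusted 0.12), and they overlapped each other (exact permutation p = 0.20, adjusted 0.212). For Fn1 to Fbn1 the means were -0.41 ± 0.17 in controls, -0.19 ± 0.23 in moderate and 0.03 ± 0.21 in severe mice (SD, n = 3). The moderate mice overlapped the controls (exact permutation p = 0.40), whereas the severe mice did not (exact permutation p = 0.10, adjusted 0.12).

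**Figure D3:**
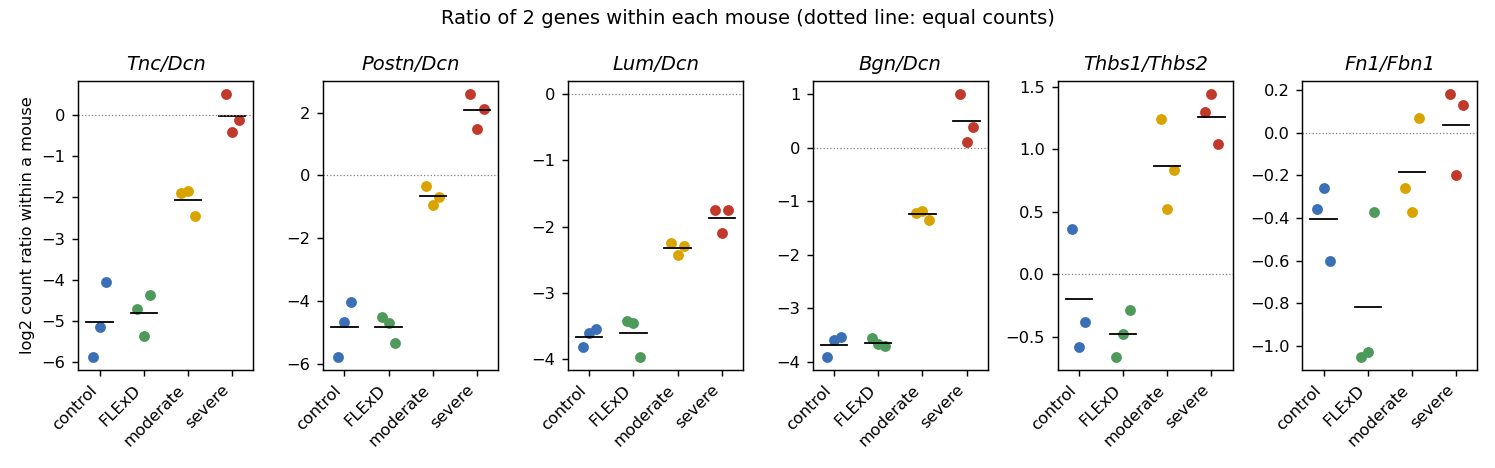
Log2 ratio of the counts of 2 genes within each mouse (points) with the group mean (line), the dotted line marking equal counts. The ratio of Bgn to Dcn lies between -3.90 and -3.54 in control mice and between 0.10 and 1.00 in severe mice.

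Levels of different genes were compared on TPM, which account for transcript length and carry no TMM factor. In controls, Dcn led at 211 ± 17.3 TPM (SD, n = 3), followed by Sparc at 99.2 ± 53.3 TPM, and Tnc was lowest at 1.97 ± 1.36 TPM, overlapping Thbs1. Between these, Lum, Fn1, Fbn1 and Bgn had means of 10.5 to 17.7 TPM and Thbs2, Postn and Thbs1 of 4.17 to 4.89 TPM, and neighbors within each of these sets overlapped between mice. FLExD/+ mice had the same first 3 genes, Dcn at 220 ± 39.5, Sparc at 90.2 ± 23.7 and Lum at 18.7 ± 0.973 TPM (SD, n = 3). In the moderate model Dcn (264 ± 7.40 TPM) and Sparc (241 ± 12.1 TPM) still led, and Postn came next at 83.8 ± 15.2 TPM, overlapping Bgn at 70.3 ± 4.97 TPM (SD, n = 3). In the severe model Sparc (667 ± 71.7 TPM) and Postn (611 ± 129 TPM) were on top and overlapped, and Dcn (282 ± 50.1 TPM) overlapped Bgn (249 ± 51.7 TPM, SD, n = 3). Thbs2 was lowest there, at 30.0 ± 8.16 TPM.

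Summed over the 10 genes, TPM were 307 to 486 in controls, 329 to 460 in FLExD/+ mice, 828 to 915 in moderate and 2123 to 2735 in severe mice. Dcn made up 56.2% ± 8.28 of this sum in controls, 58.3% ± 1.27 in FLExD/+ mice, 30.2% ± 1.48 in moderate and 12.2% ± 3.23 in severe mice (SD, n = 3). Postn went from 1.14% ± 0.501 in controls to 9.59% ± 1.79 and 25.9% ± 3.06, and Bgn from 2.74% ± 0.237 to 8.03% ± 0.257 and 10.5% ± 0.667. Sparc kept a share of 24.7% to 28.4% on average in the 3 groups. Thbs2 stayed between 1.12% and 1.30%. These shares are a description, with no test.

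**Figure D4:**
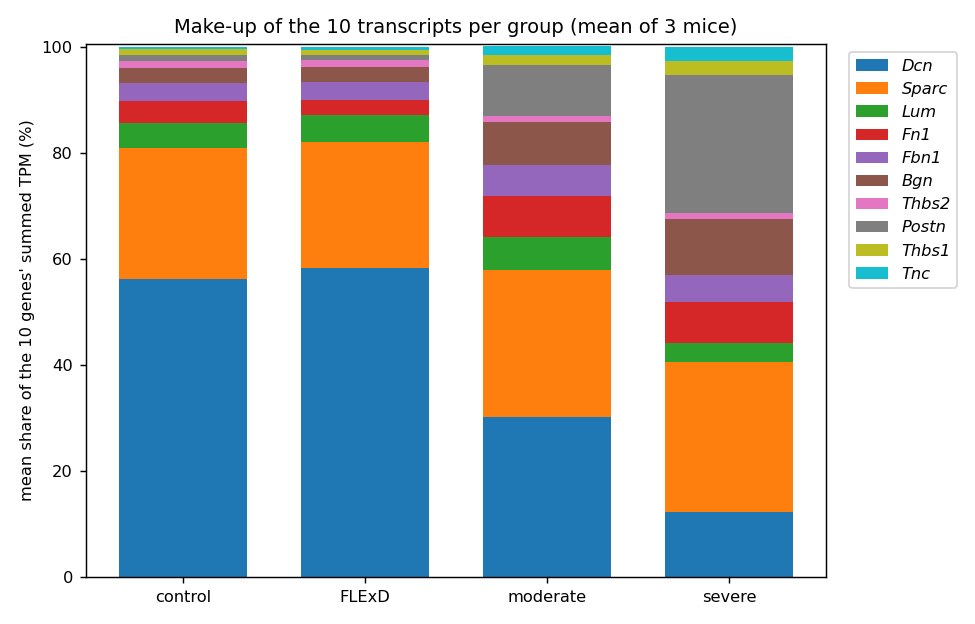
Mean share of each gene in the summed TPM of the 10 genes (percent, 3 mice per group), stacked by group. Dcn takes 56.2% of the bar in controls and 12.2% in the severe model, while Postn grows from 1.14% to 25.9%.

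From moderate to severe, 7 of the 10 genes were called higher and Dcn lower, beside 17.6% and 18.8% of all tested genes. In 7 genes every severe mouse was above every moderate mouse (30.5% of all tested genes). The calls of Postn, Bgn and Thbs2 held under 13 of 13 alternatives and that of Thbs1 under 12, Tnc under 11, Fn1 under 9 and Sparc under 6. Other fold thresholds are not among these 13. Thbs2 (0.87), Fn1 (0.77) and Sparc (0.74) fall short of a log2 fold threshold of 1.

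Other matricellular genes were followed in a list of 17, of which 16 were tested. In the moderate model 9 were called higher and 0 lower, and in the severe model 9 higher and 1 lower, with median log2 fold changes of 1.33 and 1.35. Over all tested genes 24.4% were higher and 17.0% lower in moderate mice, and 32.9% and 27.9% in severe mice, with medians of 0.04 and 0.08. Spp1 (osteopontin, a secreted ligand of integrins made by macrophages among others) had 13, 25 and 34 counts in controls, 1303, 1179 and 1063 in moderate and 9272, 6397 and 5330 in severe mice. It rose by 5.04 and 7.11 (log2, adjusted p = 6.7e-07 and 1.6e-08). Tnn, tenascin-N, had 0, 3 and 1 counts in controls, 5, 3 and 9 in moderate and 104, 42 and 68 in severe mice, and was called in the severe model (adjusted p = 1.4e-05). Tnr, tenascin-R, known as a nervous system protein, had the opposite order, with 0, 0 and 1 counts in controls, 61, 26 and 75 in moderate and 11, 20 and 10 in severe mice. It was called in both models (adjusted p = 1.7e-05 and 0.00414) and was lower in severe than in moderate mice by -2.44 (log2, adjusted p = 4.0e-04). Sparcl1, a relative of Sparc, fell by 0.70 in the severe model under TMM (log2, adjusted p = 1.1e-04), but with library size alone it was called higher, at 0.60 (log2, adjusted p = 6.8e-05).

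The list of other small leucine-rich proteoglycans held 14 genes, of which 11 were tested. In the moderate model 3 were called higher (Aspn, Podn, Tsku) and 0 lower, and severe mice had 4 called higher and 4 lower, beside 24.4% of all tested genes higher in moderate and 32.9% higher and 27.9% lower in severe mice. These shares are close to those of the list, while its 0 genes called lower in moderate mice stand beside 17.0% of all tested genes. Aspn (asporin, a relative of decorin without glycosaminoglycan chains) rose by 1.37 and 2.41 (log2, adjusted p = 2.7e-05 and 6.0e-08), and Tsku (tsukushi) by 1.07 and 1.80 (log2, adjusted p = 0.00265 and 1.2e-05). Podnl1 was low, with 0, 0 and 5 counts in controls and 30, 18 and 17 in the severe model. Chad (chondroadherin) fell by 2.70, Kera by 2.20 and Fmod (fibromodulin) by 1.72 in the severe model (log2, adjusted p = 0.00208, 0.00882 and 0.00389). Scaled by library size alone this list had 8 called higher and 1 lower in the severe model. The lower one was Chad at -1.40 (log2, adjusted p = 0.0461). On that scaling 12580 of all 16679 tested genes were called higher and 1070 lower. Kera and Fmod were then at -0.91 and -0.42 and not called, and Omd was called higher at 0.68 (log2). Podn and the fourth lower gene, Omd, were named after their values were seen.

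Microfibril and elastic fiber genes, partners of fibrillin-1, numbered 16, all tested. There were 9 called higher and 0 lower in moderate and 11 higher and 2 lower in severe mice, with medians of 0.93 and 1.60 (all tested genes 24.4% higher and 17.0% lower in moderate, 32.9% and 27.9% in severe mice). Ltbp2, which binds fibrillin-1, rose by 2.50 and 4.58 (log2, adjusted p = 5.7e-04 and 7.4e-07), and Mfap5, a microfibril protein, by 1.67 and 2.41 (log2, adjusted p = 1.1e-06 and 1.1e-08). Fbn2, fibrillin-2 of developing tissue, had 1, 1 and 27 counts in controls, the 27 in mouse 1349, and 619, 228 and 179 in the severe model (adjusted p = 9.6e-04). Ltbp4 and Efemp1 fell by 1.21 and 0.91 in the severe model under TMM (log2, adjusted p = 1.4e-05 and 2.0e-05). Scaled by library size alone they were at 0.09 and 0.39 (log2), neither called.

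Receptors of the 10 proteins, integrin chains, syndecan and toll-like receptors among them, numbered 15, all tested. There were 10 called higher in moderate and 10 in severe mice, and 1, Itgb5, lower in the moderate model (named after its value was seen), beside 24.4% and 32.9% of all tested genes higher and, for moderate mice, 17.0% lower. Itgb5 was not called in moderate mice (-0.46, log2) and was called higher in severe mice when scaled by library size alone. Stab1, a scavenger receptor that takes up SPARC, rose by 2.17 and 3.46 (log2, adjusted p = 2.1e-08 and 1.2e-10). Tlr2, a toll-like receptor that binds biglycan, rose by 1.62 and 2.87 (log2, adjusted p = 6.2e-06 and 5.0e-09). Itga5, which encodes the alpha chain of the classical fibronectin receptor, rose by 1.35 and 2.07 (log2, adjusted p = 3.6e-06 and 1.6e-08).

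Of 15 enzymes that build glycosaminoglycan chains, all tested, 9 were called higher and 1 lower in moderate and 11 higher and 1 lower in severe mice, beside 24.4% and 17.0% of all tested genes in moderate and 32.9% and 27.9% in severe mice. Dse, which makes dermatan sulfate as carried by decorin and biglycan, rose in both models (adjusted p = 4.5e-07 and 1.2e-09), by 1.95 in severe mice (log2). Chsy1, a chondroitin polymerase, rose by 1.32 and 1.70 (log2, adjusted p = 4.6e-04 and 2.1e-05), and Chst11, a chondroitin sulfotransferase, by 1.46 and 2.58 (log2, adjusted p = 0.00209 and 3.3e-06). B3gat3, an enzyme of the linker that joins chain and core protein, fell by 0.88 in the severe model under TMM (log2, adjusted p = 2.2e-06) and was at 0.43 (log2, not called) with library size alone. In the moderate model the lower gene was Xylt1, named after its value was seen and not called with library size alone. In FLExD/+ mice 0 genes of these 5 lists were called with edgeR.

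**Figure D5:**
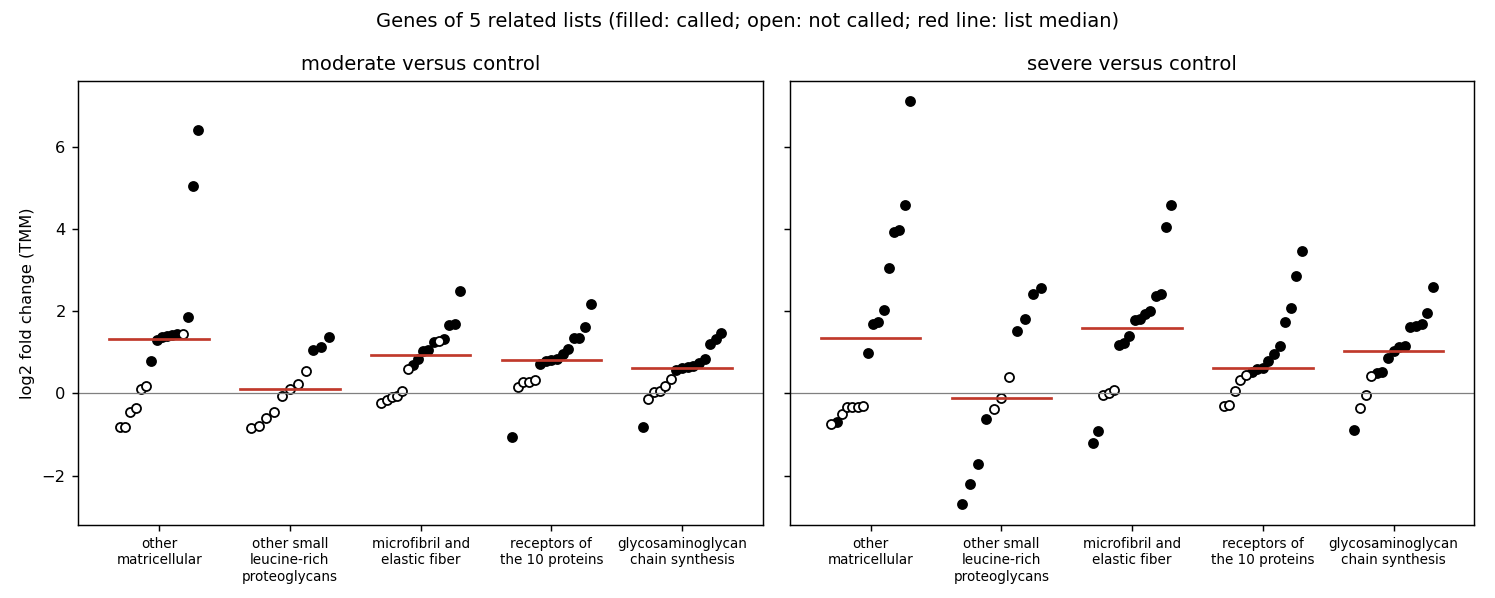
Log2 fold change (TMM) of each tested gene in the 5 related lists, moderate versus control on the left and severe versus control on the right, filled where called and open where not, with the list median in red. The medians lie between 0.12 and 1.33 in moderate and between -0.12 and 1.60 in severe mice, and the small leucine-rich proteoglycans spread to both sides of 0 in the severe model.

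Muscle holds several cell types that could contribute to these transcripts, and in bulk RNA, fewer cells of a type and less RNA per cell cannot be told apart. The summed level of 9 fibroblast and fibro-adipogenic markers was 378 to 1277 CPM in controls, highest in mouse 1349, 2059 to 2223 CPM in moderate and 3658 to 4822 CPM in severe mice. Col1a1 and Col3a1 made up 63.5% to 86.3% of this sum in controls and 94.8% to 96.5% in severe mice, and the other 7 markers summed to 138 to 175 CPM in controls, 205 to 213 CPM in moderate and 168 to 191 CPM in severe mice. The median log2 change of the list was 0.47 in moderate and 0.21 in severe mice. Of its 8 tested genes, 2 were called higher in the severe model, Col3a1 (3.25, log2) and Pdgfra (0.68, log2), and 3 lower, Clec3b, Dpp4 and Pi16, and the ninth, Tcf21, was near 0. All 8 macrophage markers were called higher in both models, with sums of 94.3 to 119 CPM in controls, 478 to 610 CPM in moderate and 1088 to 1181 CPM in severe mice. Of all tested genes, 24.4% were called higher in moderate mice, and 32.9% higher and 27.9% lower in severe mice. All 6 endothelial markers were called lower in the severe model, as were 4 of 6 smooth muscle and pericyte markers. So were 2 of 3 tenocyte markers, 2 of 4 adipocyte markers and 3 of 4 Schwann cell markers. Of 3 tested platelet markers 2 were higher in both models. In the opposite direction, Notch3 of the pericyte list (0.88, log2, adjusted p = 6.0e-05) and Scx of the tenocyte list (0.75, log2, adjusted p = 0.00319) were called higher in the severe model, and Myh11 of smooth muscle (0.99, log2, adjusted p = 0.00411) in the moderate model. The lower calls depend on the scaling. With library size alone, 12580 of all 16679 tested genes were called higher and 1070 lower in severe mice. Under library size alone, severe mice had 0 endothelial markers called lower and 2 higher, 0 fibroblast markers lower and 7 higher, 2 smooth muscle and pericyte markers lower and 2 higher, and 0 tenocyte, adipocyte or Schwann cell markers lower, while all 8 macrophage markers stayed higher. Several of these lists moved with the 10 genes, and their part in the results was not tested.

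Among the 12317 genes with a mean of at least 50 counts, the gene closest in pattern to each of the 10 was found as the smallest root-mean-square distance between log2 CPM over 12 mice, each gene centered on its own mean. Dcn had the closest partner, Ubl3 at 0.08, with group means of 65.9, 65.4, 54.6 and 36.7 CPM from control to severe. Lum was nearest to Dpp3 (0.09), Bgn to Hk3 (0.11), Sparc to the collagen gene Col6a1 (0.14), and Fbn1 to Col6a2 (0.19). Fn1 was nearest to Ckap4 and Thbs2 to D15Ertd621e (0.17 each), Thbs1 to Ccnf (0.26), Tnc to Col3a1 (0.35) and Postn to the histone gene Hist1h2ap (0.38). Col3a1, the gene nearest to Tnc, had means of 328, 276, 1594 and 3128 CPM over the same groups.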

How the data were processed

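Single-end 50-base RNA-seq reads of gastrocnemius muscle from 12 mice, 3 per group, had been mapped with RSEM 1.2.4 (calling Bowtie), then TopHat2 2.0.8b, to a merged mm10 annotation per the study's methods. The authors deposited expected counts (not normalized) and TPM (no factor between libraries) for 37748 genes. The strand of the libraries is not given in the sources used here.

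Expected counts were rounded and tested with edgeR 4.0.16 in R 4.3.3 (filterByExpr, TMM, robust quasi-likelihood F-test), 4 groups in 1 fit, with Benjamini-Hochberg adjustment over 16679 genes. Standard errors came from the F statistic. RSEM divides reads shared between genes, and counts of Sparc, Fn1, Bgn and Fbn1 in 12 mice and of Tnc in 6 were not whole. TPM were tested as log2(TPM + 1) with limma 3.58.1. Ratios used a pseudocount of 0.5 counts and exact permutation tests. Alternatives were library size alone or median-of-ratios factors as the scaling, DESeq2 1.42.0, limma on TPM, no filter, a filter of 10 counts in every mouse, a fit of the 2 groups alone, other fold thresholds and each mouse left out. The 13 alternatives counted per gene and comparison leave out the other fold thresholds. The scripts were tested on simulated data. Positions came from GENCODE M21 on GRCm38 and promoters from RefSeq. A column of no sample was not used (0 left out).

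All 10 genes are named. From each list, up to 3 higher and 3 lower genes with the largest severe change are named, as is the gene nearest in pattern to each of the 10. Genes and lists were chosen with earlier results of these data known. The p-values of the main edgeR fit rest on the spread between mice within groups, estimated once per gene over all 4 groups of 3 mice. The exact permutation p-values use only the 2 groups compared.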

Additional observations from a re-analysis of the deposited data

How the results depend on the processing

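Of 520 alternative values of the 10 genes' log2 fold changes, which leave out other fold thresholds, 476 kept direction and call. With library size alone and with limma on TPM, Dcn reversed to 0.45 and 0.33 in the moderate model and 0.51 and 0.41 in the severe model. Between the models Dcn reversed to 0.06 and 0.08, and Lum to 0.51 and 0.53. Under these 2 settings the median tested gene was at 0.65 and 0.29 in moderate mice and 1.39 and 0.79 in severe mice. Between the models it was at 0.72 and 0.49 (log2). Of the severe calls, 92.2% were higher with library size alone, against 54.1% with TMM. The genes called lower fell from 1 to 0 with library size alone, limma on TPM and a fold threshold of 1, in the severe model and between the models. Genes called higher between the models numbered 4 at a fold threshold of 1 and 3 to 6 with a mouse left out, 3 without severe mouse 1047 and 4 without moderate mouse 1331. In FLExD/+ mice, leaving out a mouse turned the sign of small differences, with ranges of -0.22 to 0.82 (Tnc), -0.49 to 0.38 (Postn), -0.42 to 0.35 (Sparc), -0.67 to 0.06 (Thbs1), -0.27 to 0.21 (Thbs2), -0.05 to 0.19 (Bgn) and -0.33 to 0.32 (Fbn1).

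With library size alone, 8764 of all 16679 tested genes were called higher and 752 lower in moderate mice. These numbers were 12580 and 1070 in severe mice, and 9648 and 823 between the models. Beside them, the lists had these calls on that scaling. In the moderate model, 6 proteoglycans were higher, and 0 receptors and 0 chain enzymes lower. In the severe model, 14 matricellular genes were higher and 0 lower (2 lower with median-of-ratios factors), 8 proteoglycans higher and 1 lower, and 0 microfibril genes and 0 chain enzymes lower. Between the models, 8 matricellular genes were higher and 1 lower, 6 proteoglycans higher and 0 lower, 14 microfibril genes higher and 1 lower, 10 receptors higher and 0 lower, and 13 chain enzymes higher and 0 lower. The 144 alternative values of ratios kept their direction, and their exact test cannot pass the threshold. No paired analysis was possible because no mouse number is shared between groups.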
